A study of Mus musculus with 12 samples.

Results

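The genes described here encode the machinery that brings nuclear-encoded proteins into mitochondria and folds them there, together with its matrix chaperones and proteases. They were chosen by symbol: every gene whose symbol starts with Tomm or Timm, and 12 further genes by name (Pam16, Dnajc19, Grpel1, Grpel2, Hspd1, Hspe1, Hspa9, Samm50, Chchd4, Gfer, Lonp1 and Clpp). The choice goes by name and not by a threshold on any measured value. The rule found 36 genes among the 25206 probe sets of the table, 25 by prefix and 11 of the 12 by name, each with 1 probe set. Pam16, Timm23 and Timm8a1 were not analysed here. One gene caught by the prefix, Timmdc1, encodes an assembly factor of respiratory complex I and is no import subunit.

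Most mitochondrial proteins are made in the cytosol and enter through the TOM complex of the outer membrane, where receptors bind the precursor and a channel passes it on. Precursors with a cleavable presequence then cross the inner membrane through the TIM23 complex, a step that needs the membrane potential and the ATP-driven PAM motor built around Hspa9, while carrier proteins are inserted by the TIM22 complex, which also needs the potential. Because import of both kinds runs on the membrane potential, cells sorted by that potential are a setting in which the genes of this machinery can be examined.

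Total RNA of mouse pluripotent cells was measured on 12 Affymetrix arrays in 4 groups of 3. The groups were ESC high, ESC low, iPSC high and iPSC low: embryonic stem cells (ESC) or induced pluripotent stem cells (iPSC, made from somatic cells by reprogramming), each separated by flow sorting into the fraction with high or with low signal of TMRM, a dye that accumulates in mitochondria with their membrane potential. All 4 groups were female, of C57BL/6 background, undifferentiated, and grown without serum or feeders in 2iLIF medium on gelatin, so these conditions are shared by the low fractions too. The labels number the arrays of each group 2, 3 and 4, and array values below are given in that order. The labels do not say how many lines were used, nor whether arrays of a group came from separate cultures. All p-values therefore rest on the variation among these arrays, and that variation may be technical.

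Values are log2 expression, and differences are differences of log2 values. Array medians lay between 3.51 and 3.61, and arrays correlated at 0.991 to 0.994 within groups and at 0.986 to 0.994 between groups across all probe sets. By these correlations no array stood apart, and 0 pairs of arrays were identical. Test results still depended on single arrays. Probe sets called within iPSC (limma adjusted p under 0.05) went from 138 to 1 without iPSC high replicate 4, and to 208 without iPSC low replicate 2. All 12 measured pluripotency markers were above the array median on every array, and 0 of 12 passed the test between high and low fractions, while 1 of 12, Klf2, was called between the cell types (0.39 ± 0.09 higher in iPSC, limma adjusted p = 0.0369). All 7 blood markers were below the array median on every array. Of 11 fibroblast markers, 6 were below it on every array and 1 above it on every array. Markers of other lineages were mixed: 4 of 8 endoderm, 2 of 7 mesoderm and 3 of 6 neural markers were above the array median on every array. Below it on every array were 4 endoderm, 3 mesoderm and 0 neural markers. In all 5 comparisons 0 of 11 fibroblast, 0 of 7 blood, 0 of 8 endoderm, 0 of 7 mesoderm and 0 of 6 neural markers passed.

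The promoters of 31 of the 36 genes were found in RefSeq's promoter table for build GRCm38.p6, which holds the 250 bases before and 50 bases after each gene's start. Tomm7, Tomm40l, Timm21, Grpel2 and Hspa9 were not among them. Letters of 6 motifs were searched on both strands, in 1 promoter per gene. The GABPA motif (CCGGAAG), the core of sites for an activator of many nuclear genes of mitochondria, was in 12 of 31 promoters (38.7%), against 9.1% of all 27025. The heat shock element core (GAANNTTC or TTCNNGAA), part of the binding site of heat shock factors, was in 9 of 31 (29.0%), against 15.1% of all. NRF1 (GCATGCG) was in 3 of 31 (9.7%), against 3.6% of all, and YY1 (AAGATGGC) in 1 of 31 (3.2%), against 2.9% of all. CCAAT was in 11 of 31 (35.5%), against 37.9% of all, and TATAAA in 3 of 31 (9.7%), against 14.2% of all. A match is a run of letters, not a shown binding site. The run TTCCGGAAG holds both the heat shock element core and the GABPA motif, so the shares of these motifs are not separate counts.

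A promoter each of 3 genes is printed, 5′ to 3′ in the sense of the gene, with the matches of 1 motif per gene in capitals. Any other match is left in lower case, except where it overlaps those capitals. Hspe1 is shown for the heat shock motif, Tomm22 for the GABPA motif, and Tomm20l because its values differed between the fractions. In the Hspe1 promoter (chr1:55087898-55088197, plus strand) the capitals are 3 overlapping heat shock element cores, the last of which overlaps both GABPA matches of this promoter, and its 1 NRF1 match is in lower case. In the Tomm22 promoter (chr15:79670618-79670917, plus strand) they are 3 GABPA matches, a pair of which overlap on opposite strands. The 1 heat shock element core of the Tomm22 promoter lies within the capitals of that overlapping pair. In the Tomm20l promoter (chr12:71111178-71111477, plus strand) they are 2 CCAAT boxes, and none of the other 5 motifs was found in that window.
Hspe1: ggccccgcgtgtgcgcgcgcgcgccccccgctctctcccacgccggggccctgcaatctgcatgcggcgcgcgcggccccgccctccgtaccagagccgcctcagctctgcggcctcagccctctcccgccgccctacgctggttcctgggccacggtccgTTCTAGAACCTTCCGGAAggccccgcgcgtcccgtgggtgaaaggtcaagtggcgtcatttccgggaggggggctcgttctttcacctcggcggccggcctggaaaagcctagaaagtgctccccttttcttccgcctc
Tomm22: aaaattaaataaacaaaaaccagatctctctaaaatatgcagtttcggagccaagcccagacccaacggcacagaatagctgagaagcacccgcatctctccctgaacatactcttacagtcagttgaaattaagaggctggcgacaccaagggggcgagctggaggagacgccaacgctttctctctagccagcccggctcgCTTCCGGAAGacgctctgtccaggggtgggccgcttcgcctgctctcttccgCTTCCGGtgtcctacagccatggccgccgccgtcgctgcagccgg
Tomm20l: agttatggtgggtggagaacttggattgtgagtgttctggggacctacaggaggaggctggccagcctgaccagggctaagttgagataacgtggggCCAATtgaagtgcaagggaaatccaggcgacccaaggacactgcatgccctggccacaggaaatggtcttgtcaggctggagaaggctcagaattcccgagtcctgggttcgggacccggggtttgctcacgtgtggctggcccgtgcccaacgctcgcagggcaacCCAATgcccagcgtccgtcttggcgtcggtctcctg
Hspd1 and Hspe1, the chaperonin and its co-chaperonin, lie head to head on chromosome 1, and the second promoter that the table lists for Hspd1 shares 285 of its 300 bases with the Hspe1 promoter on the other strand. The annotated ends of Hspd1 and Hspe1, of Tomm20l and Timm9 on chromosome 12, and of Tomm6 and Tomm6os on chromosome 17 overlap. Where the probes lie is not given in the sources used here, so whether signal is shared within these pairs was not tested.

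Most genes of the import machinery showed little difference between high and low potential fractions, and 2 of 36 passed the test. Grpel2 fell and Tomm20l rose in the high fractions when ESC and iPSC were averaged. That is 5.56% of these genes, where 2.50% of all 25206 probe sets were called in the same comparison (limma, Benjamini-Hochberg adjusted p under 0.05 over all probe sets). The 631 calls over the whole table were 403 higher and 228 lower in high fractions, or 361 higher and 368 lower once each array was centred on its median. At an unadjusted p under 0.05 the count was 6 of 36 (16.7%), against 15.6% of all probe sets. The median difference of the 36 genes was 0.01, against 0.00 for all probe sets, with 21 above 0 and 15 below, and 28 of 36 differed by less than 0.2. The median size of the difference, without its sign, was 0.109, against 0.0887 for all probe sets. Small differences were therefore not particular to these genes. The 95% interval lay within 0.5 of 0 for 28 genes and within 1 for all 36. The plot of differences by gene shows the roles side by side.

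**Figure D1:**
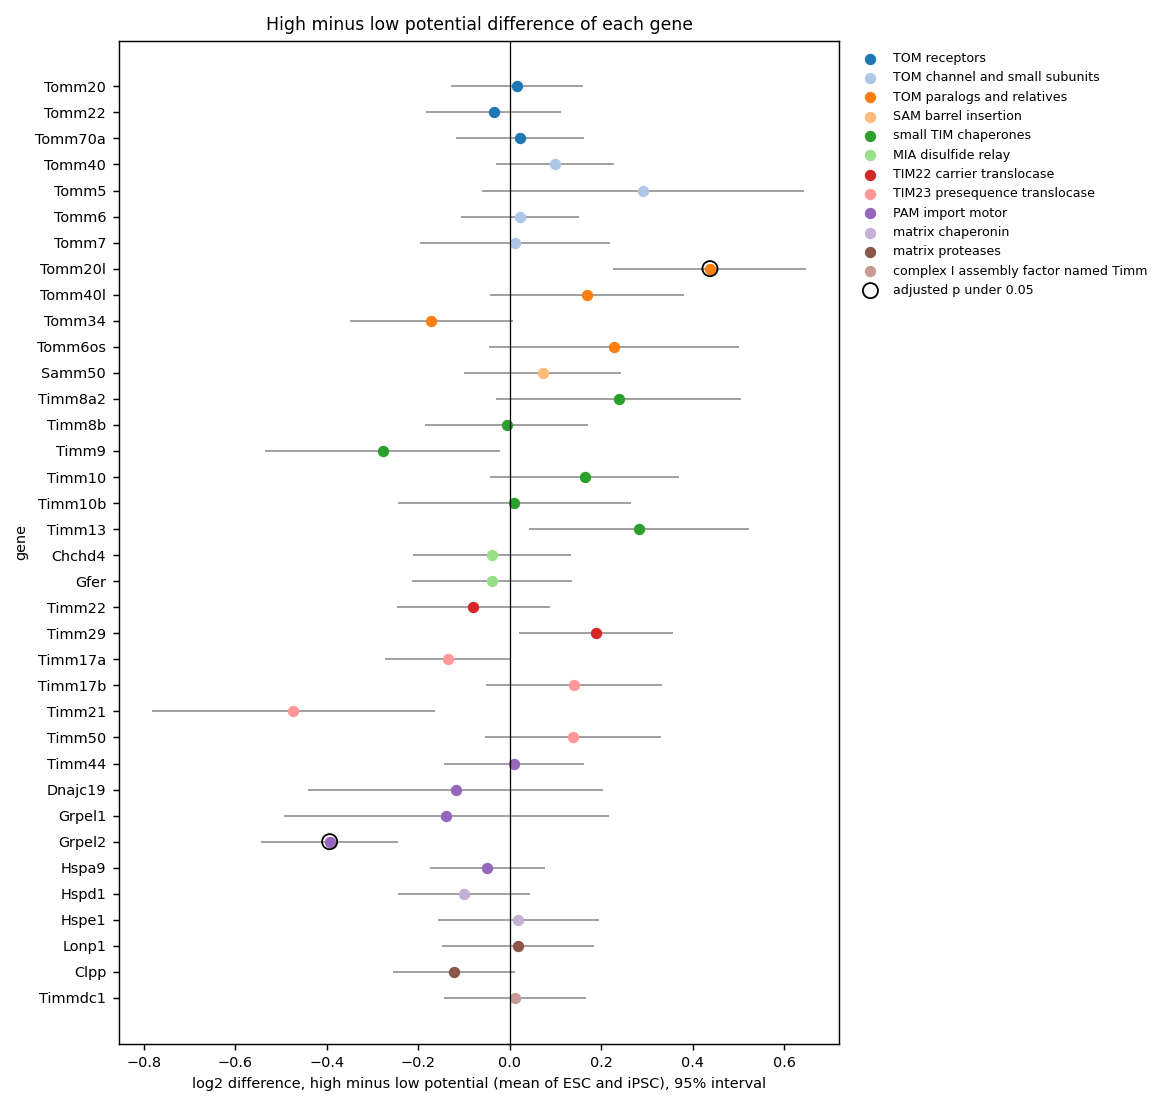
Log2 difference of each of the 36 genes, high minus low potential averaged over ESC and iPSC (x axis), by gene in order of role (y axis), with the 95% interval from limma as a line and the role as colour. Ringed points, Grpel2 at -0.39 and Tomm20l at 0.44, have an adjusted p under 0.05, and 28 of the 36 points lie within 0.2 of 0.

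Grpel2 (probe set 17714_at, chromosome 18) encodes a mitochondrial GrpE-like factor that releases ADP from Hspa9, so that the motor chaperone can go through its cycle. Its log2 values were 6.12, 6.04 and 6.05 in ESC high, against 6.53, 6.52 and 6.29 in ESC low, and 6.14, 6.24 and 6.35 in iPSC high, against 6.59, 6.76 and 6.61 in iPSC low. Within each cell type every high array was below every low array. It was the only 1 of the 36 genes with that pattern in both cell types (2.78%, against 3.82% of all probe sets). The averaged difference was -0.39 ± 0.07 (SE; 95% interval -0.54 to -0.24; 0.761-fold; limma adjusted p = 0.0100), and all 6 equally numbered pairs went the same way. It remained called when any 1 of the 12 arrays was left out (adjusted p 0.00966 to 0.0306). Within ESC alone the difference was -0.38 ± 0.10 (adjusted p = 0.174) and within iPSC -0.41 ± 0.10 (adjusted p = 0.0866), neither past the threshold. The interaction, the iPSC difference minus the ESC difference, was -0.03 ± 0.14.

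The second GrpE-like factor, Grpel1, is described as the main exchange factor of Hspa9 in mammals. Its values were 6.29, 6.05 and 6.85 in ESC high, against 5.99, 6.48 and 6.86 in ESC low, and 6.19, 5.68 and 6.12 in iPSC high, against 6.25, 6.08 and 6.36 in iPSC low. The groups overlapped, the averaged difference was -0.14 ± 0.16, and the spread within groups (pooled SD 0.336) was the widest of the 36 genes. The averaged difference of Grpel2 minus that of Grpel1 was -0.25. Exact permutation of fraction labels within each cell type (400 arrangements) gave a two-sided p of 0.27. The adjusted p was 0.36 over 4 paralog pairs, which were chosen after the data were seen. That permutation does not use the replicate numbers. An exact sign flip over the numbered pairs, added later, gave p = 0.03125 for Grpel2 minus Grpel1, the smallest that 6 pairs can give, with all 6 pairs below 0 and an adjusted p of 0.125. The permutation did not pass after adjustment. The sign flip could not decide, because its smallest p, reached by this pair alone among the 4, adjusts to 0.125.

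Tomm20l (probe set 75266_at, chromosome 12) is a paralog of the import receptor Tomm20. Its log2 values were 3.19, 2.91 and 2.82 in ESC high, against 2.53, 2.89 and 3.01 in ESC low, and 3.28, 3.37 and 3.16 in iPSC high, against 2.68, 2.54 and 2.44 in iPSC low. The iPSC fractions did not overlap, with every high array above every low array, whereas the ESC fractions overlapped. The probe set was dim, between the 33.2 and 46.7 percentile of its array, and the values carry no detection calls. The averaged difference was 0.44 ± 0.10 (SE; 1.35-fold; limma adjusted p = 0.0342), and the difference within iPSC was 0.71 ± 0.14 (1.64-fold; adjusted p = 0.0403), against 0.16 ± 0.14 within ESC.

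Neither Tomm20l call held in all fits. With the replicate number as a block within each cell type the adjusted p was 0.0679 for the average and 0.0737 within iPSC. The averaged call was kept without ESC low replicate 4, ESC high replicate 4 or iPSC low replicate 2, and was lost without any other array, with adjusted p between 0.0507 (without ESC low replicate 3) and 0.0889 (without iPSC low replicate 4). Within iPSC, Tomm20l missed the threshold when ESC low replicate 3 was left out (adjusted p = 0.0530), and likewise for ESC high replicate 3 (0.0596), iPSC low replicate 3 (0.130) or 4 (0.170), or iPSC high replicate 2 (0.0960), 3 (0.145) or 4 (0.101). The interaction was 0.55 ± 0.19 (limma adjusted p = 0.9998), so a difference between the cell types did not pass. Tomm20 itself, below, moved by 0.02 ± 0.07 on average. The averaged difference of Tomm20l minus that of Tomm20 was 0.42. It did not pass either (exact permutation p = 0.025, adjusted p = 0.09 over the 4 pairs). The exact sign flip over numbered pairs gave p = 0.09375, with 5 of 6 pairs above 0.

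Genes of G2 and mitosis moved with the same fractions. Of 24 measured genes of that list, 17 rose in high fractions and 0 fell in the averaged comparison (median 0.43), and their mean log2 level was 8.32 to 8.48 on ESC high arrays, against 7.94 to 8.02 on ESC low arrays, and 8.44 to 8.50 on iPSC high arrays, against 8.03 to 8.10 on iPSC low arrays. Of 20 measured G1/S genes, 4 fell and 0 rose (median -0.15). Without any 1 array, 13 to 16 genes of the first list rose. The part of these lists in the values of Grpel2 and Tomm20l was not tested. In sorted bulk samples, fewer cells that express a gene and less RNA per cell cannot be told apart.

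**Figure D2:**
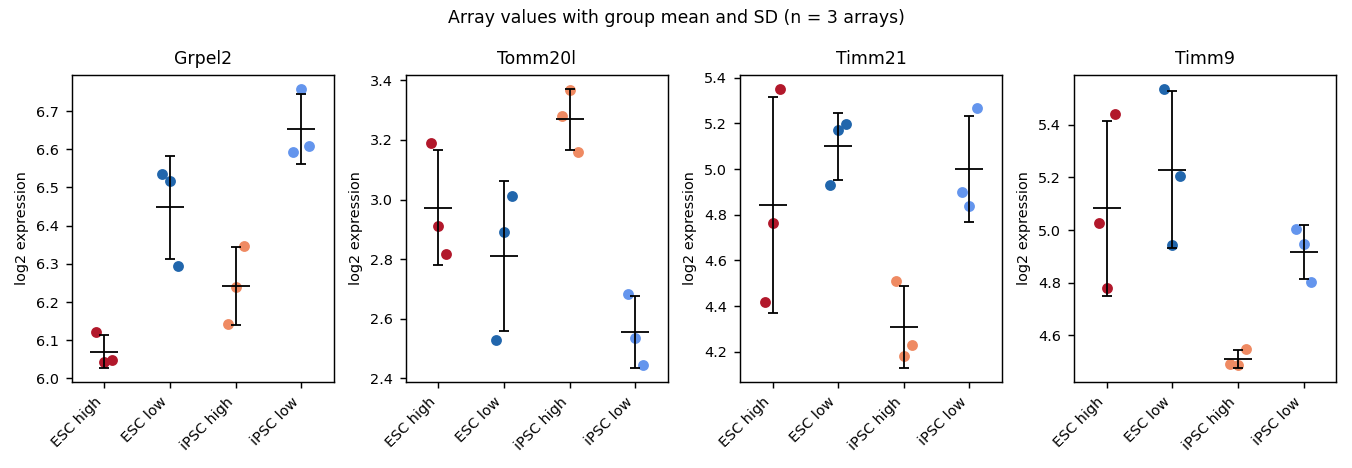
Log2 expression (y axis) of Grpel2, Tomm20l, Timm21 and Timm9 on each array by group (x axis), where points are arrays, the long bar is the group mean and whiskers are 1 SD (n = 3). Grpel2 lies lower in the high fraction of both cell types, and Tomm20l lies at 3.16 to 3.37 in iPSC high, above the 2.44 to 2.68 of iPSC low.

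At the outer membrane, none of the 3 TOM receptors and none of the 4 channel and small subunits passed the test in any of the 5 comparisons. No comparison called more than 2.87% of all probe sets, so an absence of calls among so few genes says little about them. Tomm20, which recognises presequences, had 7.04, 6.99 and 6.96 in ESC high, against 6.89, 7.03 and 6.93 in ESC low, and 7.03, 6.93 and 6.92 in iPSC high, against 7.05, 7.08 and 6.81 in iPSC low. Tomm70a, the receptor for carriers and other internal signals, had 9.06, 8.96 and 8.88 in ESC high, against 9.05, 8.90 and 8.95 in ESC low, and 9.01, 9.06 and 8.92 in iPSC high, against 9.05, 8.94 and 8.86 in iPSC low. The fractions overlapped for both genes, with averaged differences of 0.02 ± 0.07 for Tomm20 and 0.02 ± 0.06 for Tomm70a, whose 95% intervals were -0.13 to 0.16 and -0.12 to 0.16. Tomm22, the central receptor and organiser of the complex, differed by -0.04 ± 0.07.

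Tomm40 forms the channel itself. Its values were 9.19, 9.07 and 9.18 in ESC high, against 8.97, 8.94 and 9.05 in ESC low, and 9.09, 9.11 and 9.06 in iPSC high, against 9.00, 9.00 and 9.14 in iPSC low. The ESC fractions did not overlap and the iPSC fractions did, and the averaged difference was 0.10 ± 0.06 (adjusted p = 0.467). Tomm5, Tomm6 and Tomm7, small subunits that stabilise the complex, had averaged differences of 0.29 ± 0.16, 0.02 ± 0.06 and 0.01 ± 0.10. Tomm40l, a paralog of Tomm40, differed by 0.17 ± 0.10. That difference minus the one of Tomm40 was 0.07 (exact permutation p = 0.53, exact sign flip p = 0.4375).

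Tomm34, a cytosolic co-chaperone of Hsp70 and Hsp90 that binds precursors, had 8.41, 8.37 and 8.34 in ESC high, against 8.80, 8.43 and 8.44 in ESC low, without overlap. In iPSC the fractions overlapped (8.37, 8.52 and 8.59 in iPSC high, against 8.50, 8.74 and 8.72 in iPSC low). The averaged difference was -0.17 ± 0.08 (adjusted p = 0.345). Tomm6os, a transcript annotated opposite Tomm6, had 3.72, 3.16 and 3.29 in ESC high, against 2.78, 3.10 and 3.09 in ESC low. Those groups did not overlap, and the ESC difference was 0.40 ± 0.18 (limma adjusted p = 0.579). Samm50, the core of the machinery that inserts barrel proteins into the outer membrane, had 8.27, 8.29 and 8.29 in ESC high, against 8.12, 8.17 and 8.42 in ESC low, and 8.46, 8.35 and 8.56 in iPSC high, against 8.44, 8.17 and 8.47 in iPSC low. The fractions overlapped, with an averaged difference of 0.07 ± 0.08.

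In the intermembrane space, 0 of 6 small TIM chaperones passed in any comparison, where at most 2.87% of all probe sets were called. These proteins escort carrier and barrel precursors between the membranes. Timm10, which forms a complex with Timm9, had 5.72, 5.45 and 5.45 in ESC high, against 4.95, 5.35 and 5.28 in ESC low, and 5.46, 5.41 and 5.15 in iPSC high, against 5.21, 5.51 and 5.36 in iPSC low. Its fractions were apart in ESC, by 0.34 ± 0.14 (limma adjusted p = 0.488), and overlapped in iPSC, by -0.02 ± 0.14. Timm13, which works with Timm8 proteins, had 5.25, 5.69 and 5.19 in ESC high, against 4.97, 4.86 and 5.10 in ESC low, and 5.02, 5.34 and 5.29 in iPSC high, against 5.31, 4.82 and 5.03 in iPSC low. It too was apart in ESC, by 0.40 ± 0.16 (limma adjusted p = 0.488), and overlapped in iPSC.

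Timm9 values went the other way in iPSC, with 4.49, 4.49 and 4.55 in iPSC high, against 5.00, 4.95 and 4.80 in iPSC low, without overlap, and a difference of -0.41 ± 0.17 (limma adjusted p = 0.331). In ESC the fractions overlapped, with 5.03, 4.78 and 5.44 in ESC high, against 5.54, 4.95 and 5.21 in ESC low. The averaged difference was -0.28 ± 0.12 (adjusted p = 0.275). Timm8a2, Timm8b and Timm10b had averaged differences of 0.24 ± 0.12, -0.01 ± 0.08 and 0.01 ± 0.12. Of the 6 genes, 5 were above 0 in ESC and 2 were above 0 in iPSC, and no interaction term of theirs passed.

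Chchd4 and Gfer run the disulfide relay that traps small cysteine-rich proteins in the intermembrane space, Chchd4 as the import receptor and oxidase and Gfer as the enzyme that reoxidises it. Chchd4 had 6.70, 6.69 and 6.80 in ESC high, against 6.83, 6.81 and 6.61 in ESC low, and 6.69, 6.96 and 6.63 in iPSC high, against 6.84, 6.95 and 6.67 in iPSC low. Gfer had 5.97, 5.98 and 5.82 in ESC high, against 5.90, 6.00 and 6.08 in ESC low, and 6.20, 6.03 and 6.02 in iPSC high, against 6.14, 5.86 and 6.28 in iPSC low. Both overlapped in each cell type, with averaged differences of -0.04 ± 0.08 each.

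At the inner membrane, 0 of 2 TIM22 genes and 0 of 4 TIM23 genes passed in any of the 5 comparisons. At most 2.87% of all probe sets were called in any, and Timm23 itself was not analysed. Timm22, the channel for carriers, had 4.63, 4.72 and 4.56 in ESC high, against 4.39, 4.72 and 4.62 in ESC low, and 4.25, 4.29 and 4.54 in iPSC high, against 4.61, 4.57 and 4.56 in iPSC low. Only the iPSC fractions were apart, by -0.22 ± 0.11, and the averaged difference was -0.08 ± 0.08. Timm29, a TIM22 subunit known from human cells, had 5.65, 5.67 and 5.76 in ESC high, against 5.53, 5.58 and 5.37 in ESC low, without overlap. In iPSC it had 5.62, 5.80 and 5.60 in iPSC high, against 5.61, 5.59 and 5.28 in iPSC low, which overlapped by a narrow margin. All 6 numbered pairs were higher in the high fraction, and the averaged difference was 0.19 ± 0.08 (limma adjusted p = 0.258).

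Timm21, which in yeast links the TIM23 complex to the respiratory chain, had the largest averaged difference in size of the 36 genes and did not pass. Its values were 4.42, 4.76 and 5.35 in ESC high, against 4.93, 5.17 and 5.20 in ESC low, and 4.51, 4.18 and 4.23 in iPSC high, against 4.90, 4.84 and 5.27 in iPSC low. The ESC fractions overlapped through 1 high array, replicate 4, and the iPSC fractions did not. The averaged difference was -0.47 ± 0.14 (0.720-fold; limma adjusted p = 0.116), with adjusted p between 0.0151 and 0.244 when 1 array was left out. Only the fit without ESC high replicate 4 passed, 1 of 12. Within iPSC the difference was -0.69 ± 0.20 (adjusted p = 0.153).

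Timm17a and Timm17b are alternative core subunits of TIM23. Timm17a had 8.07, 8.08 and 8.19 in iPSC high, against 8.38, 8.25 and 8.35 in iPSC low, without overlap, a difference of -0.21 ± 0.09 (limma adjusted p = 0.356), while its ESC fractions overlapped. Timm17b had an averaged difference of 0.14 ± 0.09, against -0.13 ± 0.06 for Timm17a. The averaged difference of Timm17a minus that of Timm17b was -0.28 (exact permutation p = 0.045, adjusted p = 0.09 over the 4 pairs, exact sign flip p = 0.125). The paralogs were therefore not shown to move apart. Timm50, the TIM23 receptor in the intermembrane space, differed by 0.14 ± 0.09.

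Beside the GrpE-like factors, the PAM motor holds Hspa9, the mitochondrial Hsp70, Timm44, which tethers it to the channel, and Dnajc19, a J protein. Hspa9 had 10.70, 10.62 and 10.58 in ESC high, against 10.71, 10.76 and 10.71 in ESC low, and 10.55, 10.69 and 10.66 in iPSC high, against 10.64, 10.68 and 10.59 in iPSC low. The ESC fractions were apart by a narrow margin, and the averaged difference was -0.05 ± 0.06 (95% interval -0.17 to 0.08). Timm44 had 8.57, 8.39 and 8.24 in ESC high, against 8.44, 8.27 and 8.26 in ESC low, and 8.28, 8.40 and 8.30 in iPSC high, against 8.38, 8.40 and 8.38 in iPSC low. Those fractions overlapped, with an averaged difference of 0.01 ± 0.07, and Dnajc19 differed by -0.12 ± 0.15. Grpel2 was the 1 motor gene of 5 that passed, in the averaged comparison, which called 2.50% of all probe sets.

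The matrix chaperonin folds imported proteins. Hspd1 (Hsp60) had 9.76, 9.65 and 9.69 in ESC high, against 9.89, 9.92 and 9.78 in ESC low, and 9.60, 9.85 and 9.60 in iPSC high, against 9.71, 9.78 and 9.67 in iPSC low. Its ESC fractions did not overlap and its iPSC fractions did, and the averaged difference was -0.10 ± 0.07 (adjusted p = 0.521). Hspe1 (Hsp10), its lid, had 6.04, 5.88 and 6.08 in ESC high, against 5.86, 5.86 and 5.99 in ESC low, and 5.80, 6.01 and 6.21 in iPSC high, against 5.97, 6.04 and 6.19 in iPSC low. All fractions of Hspe1 overlapped, with an averaged difference of 0.02 ± 0.08.

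The matrix proteases Lonp1 and Clpp degrade damaged or unassembled proteins. Lonp1 had 7.50, 7.28 and 7.29 in ESC high, against 7.17, 7.28 and 7.54 in ESC low, and 7.41, 7.55 and 7.56 in iPSC high, against 7.51, 7.46 and 7.52 in iPSC low. Its fractions overlapped, with an averaged difference of 0.02 ± 0.08. Clpp had 6.14, 6.15 and 6.20 in ESC high, against 6.17, 6.23 and 6.32 in ESC low, and 5.87, 6.00 and 6.07 in iPSC high, against 6.08, 6.16 and 6.20 in iPSC low. The iPSC fractions of Clpp were apart, all 6 numbered pairs were lower in the high fraction, and the averaged difference was -0.12 ± 0.06 (limma adjusted p = 0.373). Timmdc1 differed by 0.01 ± 0.07.

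**Figure D3:**
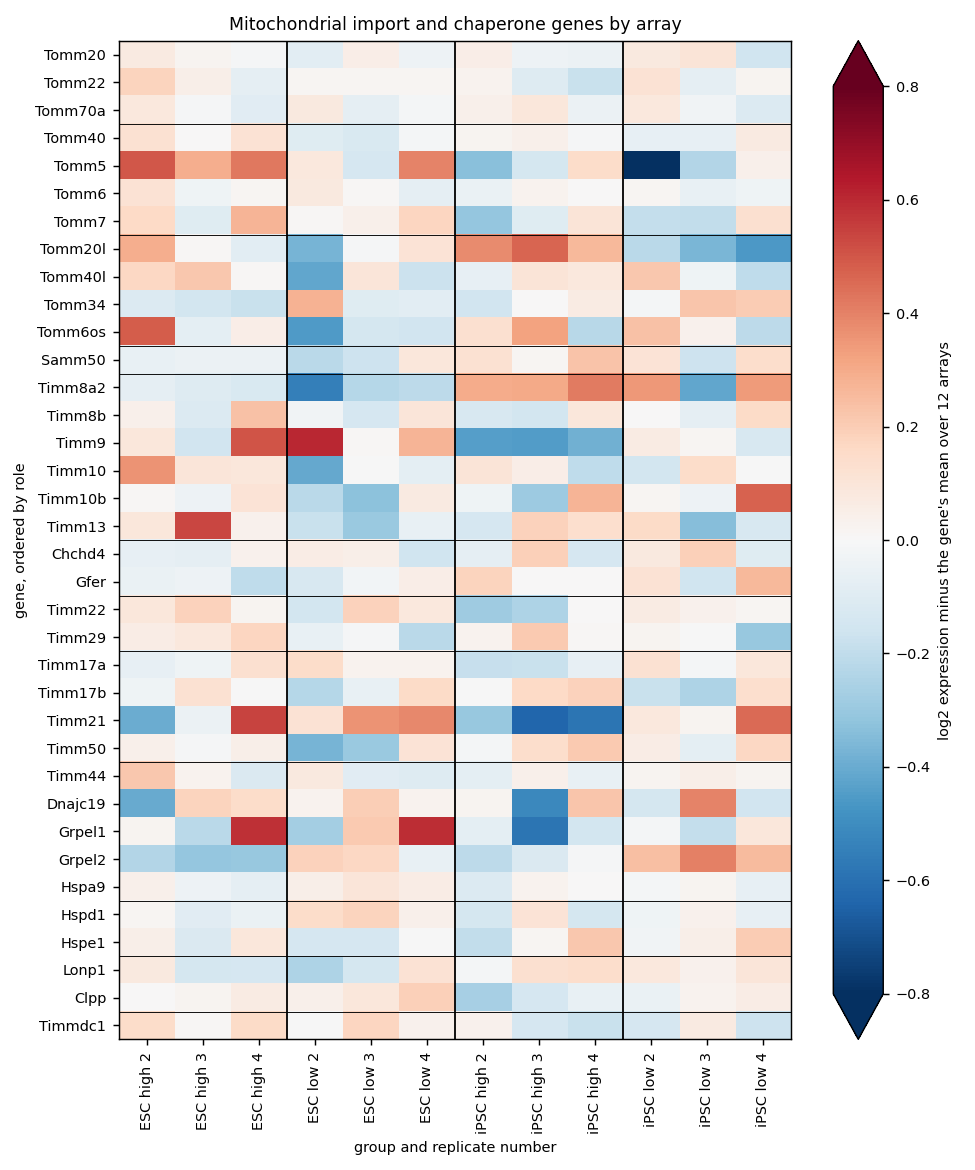
Log2 expression of the 36 genes (y axis, in order of role) on each of the 12 arrays (x axis, group and replicate number), each shown as the deviation from the gene's own mean over all arrays (colour, log2 units, capped at 0.8). Grpel2 is below its mean on all high arrays and above it on 5 of 6 low arrays, Tomm20l stands out on the iPSC arrays, and most rows stay pale.

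Counted within each cell type, calls were few. In ESC, 0 of 36 genes passed the adjusted threshold (limma; 0.357% of all probe sets) and 4 passed an unadjusted p under 0.05, Tomm6os, Timm10 and Timm13 higher and Grpel2 lower in ESC high (8.29% of all). In iPSC, 1 of 36 passed, Tomm20l (0.547% of all), and 5 passed unadjusted, Tomm20l higher and Timm9, Timm17a, Timm21 and Grpel2 lower in iPSC high (12.7% of all). The arrays of high and low did not overlap for 10 of 36 genes in ESC (27.8%, against 13.1% of all probe sets), 6 higher and 4 lower in ESC high, and for 7 of 36 in iPSC (19.4%, against 19.3% of all), 1 higher and 6 lower in iPSC high. All 6 numbered pairs went one way for 5 of 36 genes (13.9%, against 12.7% of all): Tomm5 and Timm29 were higher and Tomm34, Grpel2 and Clpp lower in the high fraction. The median difference was 0.04 in ESC (23 above 0, 13 below), against -0.00 for all probe sets, and -0.02 in iPSC (14 above, 22 below), against 0.00 for all.

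The interaction asked whether the difference between high and low fractions was unequal in iPSC and ESC. None of the 36 genes passed (limma; 0% of all probe sets, as no probe set was called), and 1 had an unadjusted p under 0.05, Tomm20l (4.36% of all). The next lowest p-values were those of Timm10, at -0.36 ± 0.19, and Timm22, at -0.27 ± 0.15 (limma adjusted p = 0.9998 for both). Across the 36 genes the differences in ESC and in iPSC had a Pearson r of 0.63 and a Spearman rho of 0.65, against 0.51 and 0.36 across all probe sets, and 25 of 36 had the same sign (69.4%, against 61.7% of all). These are descriptions across genes, which are not independent replicates, and the values share the sort and the joint normalization.

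**Figure D4:**
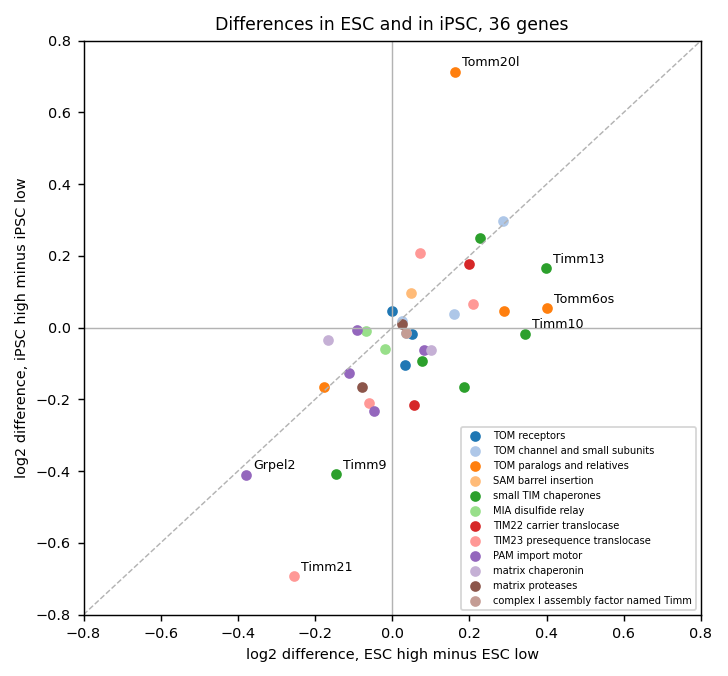
Log2 difference high minus low in ESC (x axis) and in iPSC (y axis) of the 36 genes, coloured by role, with the line of equal differences dashed. Grpel2 lies near the line at -0.38 and -0.41, and Tomm20l lies off it at 0.16 in ESC and 0.71 in iPSC.

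Between the cell types, averaged over fractions, 0 of 36 genes passed (limma; 2.87% of all probe sets), and 7 had an unadjusted p under 0.05 (19.4%, against 14.7% of all). Of these, Timm8a2 and Grpel2 were higher and Tomm5, Timm9, Timm21, Clpp and Timmdc1 lower in iPSC. The 6 iPSC and 6 ESC arrays overlapped for every one of the 36 genes, while 2.75% of all probe sets did not overlap. The median difference, iPSC minus ESC, was -0.01 (15 above 0, 21 below), against 0.01 for all probe sets, and for 31 of 36 genes the 95% interval lay within 0.5 of 0.

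The lowest p belonged to Timm9, whose 4.49, 4.49 and 4.55 in iPSC high lay below the 5.03, 4.78 and 5.44 of ESC high, whereas 5.00, 4.95 and 4.80 in iPSC low overlapped with 5.54, 4.95 and 5.21 in ESC low. The difference was -0.44 ± 0.12 (limma adjusted p = 0.0694). It passed with the replicate block (adjusted p = 0.0392), which sets the cell types only against the spread within pairs, and without ESC low replicate 3 (0.0407) or ESC high replicate 3 (0.0400). With the pairs as a random effect, an alternative chosen after seeing the data, the adjusted p was 0.120.

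Timm8a2, a paralog of Timm8a1, had 4.66, 4.66 and 4.77 in iPSC high, against 4.28, 4.26 and 4.24 in ESC high, and 4.71, 3.94 and 4.70 in iPSC low, against 3.81, 4.13 and 4.15 in ESC low. A single array, iPSC low replicate 3, lay within the ESC values. The difference was 0.43 ± 0.12 (limma adjusted p = 0.0952), and 0.164 with the pairs as a random effect. Of the 12 fits with 1 array left out only the one without iPSC low replicate 3 passed (adjusted p = 0.00581), and the others reached 0.203. Tomm5 had 3.72, 3.91 and 4.20 in iPSC high, against 4.55, 4.34 and 4.47 in ESC high, and 3.03, 3.81 and 4.09 in iPSC low, against 4.13, 3.92 and 4.45 in ESC low. The high fractions did not overlap and the low fractions did, and the difference was -0.52 ± 0.16 (limma adjusted p = 0.129, 0.0246 with the replicate block and 0.184 with the pairs as a random effect).

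**Figure D5:**
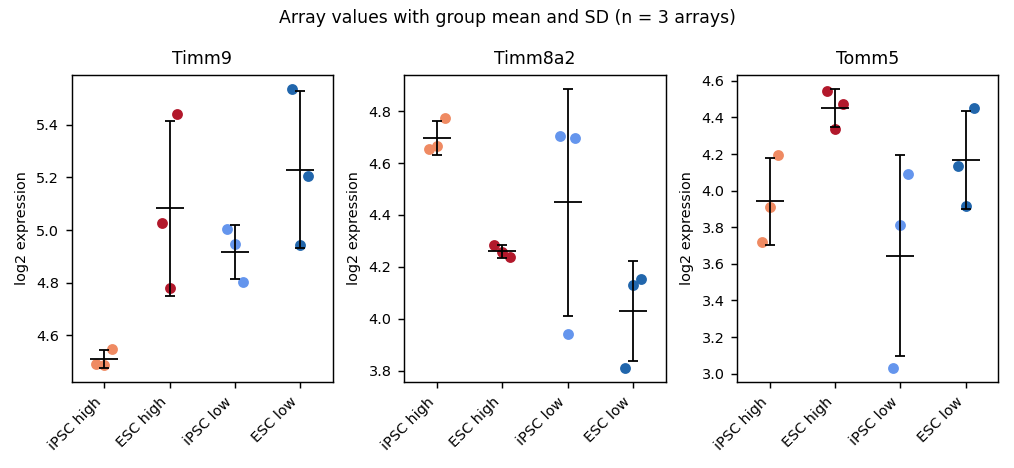
Log2 expression (y axis) of Timm9, Timm8a2 and Tomm5 on each array by group (x axis, iPSC beside ESC within a fraction), with the group mean as a bar and 1 SD as whiskers (n = 3). The high fractions of the 2 cell types are apart for all 3 genes, and the low fractions overlap.

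The spread between arrays set what could be seen for each gene. The pooled SD within groups had a median of 0.134 over the 36 genes, against 0.160 over all probe sets. It was lowest for Hspa9 (0.0536) and highest for Grpel1 (0.336) and Tomm5 (0.333). For 34 of the 36 genes the mean over all arrays was above that of the median probe set, the exceptions being Tomm20l and Tomm6os.

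Other genes of the import and quality control pathway were counted from 7 lists with 60 measured genes that are not among the 36. In the averaged comparison 1 of 60 rose in high fractions and 0 fell (1.67%, against 2.50% of all probe sets called). The gene was Dnajc28, a J-domain protein from the list of other mitochondrial chaperones, at 0.43 ± 0.10 (limma adjusted p = 0.0434). That call was kept without ESC low replicate 3, ESC high replicate 4 or iPSC low replicate 2 and missed the threshold without any other array (adjusted p up to 0.110). The median of the 60 was -0.02. No gene passed among presequence processing and insertion, where Romo1 came nearest at 0.27 ± 0.07 (adjusted p = 0.0778), among outer membrane insertion and channels (Mtx3, -0.31 ± 0.11, adjusted p = 0.168), though both had a lower p without ESC high replicate 4 (0.0358 for Romo1 and 0.0412 for Mtx3), or among the MICOS organisers of cristae (Chchd6, 0.24 ± 0.07, adjusted p = 0.120). The proteases and prohibitins (Oma1, -0.16 ± 0.08, adjusted p = 0.382), the cytosolic chaperones (Dnaja2, -0.12 ± 0.08, adjusted p = 0.544) and the regulators of the mitochondrial stress response (Trib3, -0.19 ± 0.14, adjusted p = 0.566) had no call either. Within ESC and within iPSC 0 of 60 passed (limma), with 4 in ESC (6.67%, against 8.29% of all) and 2 in iPSC (3.33%, against 12.7% of all) at an unadjusted p under 0.05, and the interaction called 0, with 0 unadjusted.

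Between the cell types 3 of the 60 genes fell in iPSC relative to ESC and 0 rose, against 2.87% of all probe sets called, 493 lower and 231 higher in iPSC. With the replicate block 1 of the 60 rose. Cox18, an insertase for a subunit of cytochrome oxidase, differed by -0.52 ± 0.07 (limma adjusted p = 0.00257), Hsph1, a cytosolic exchange factor of Hsp70, by -0.44 ± 0.07 (adjusted p = 0.00442), and Pmpcb, the catalytic subunit of the presequence peptidase, by -0.29 ± 0.06 (adjusted p = 0.0334). Cox18 and Hsph1 remained called without any 1 array, whereas with 1 array left out Pmpcb was called only without ESC low replicate 2 or ESC high replicate 2 (adjusted p up to 0.0780 without others). Atf4, a transcription factor of the stress response, differed by 0.24 ± 0.07 (adjusted p = 0.107) and did not pass.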

How the data were processed

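Gene expression in 12 RNA samples was measured on Affymetrix arrays. The authors deposited log2 expression, 1 column for each array. The submitters' processing notes name RMA, affy 1.36.1 and R 2.15.1. In RMA, background correction is followed by quantile normalization across arrays and a summary of probes per probe set, so differences are relative to the other genes of the array. Which chip definition and genome build lie behind the probe sets is not given in the sources used here. Precision is limited by the number of arrays.

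Of 25206 probe sets, 23185 had 1 gene symbol in the platform annotation, 2021 had none and 0 had several. All 36 genes were found in the RefSeq gene table of GRCm38.p6 with an equal symbol.

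Tests used limma 3.58.1 in R 4.3.3 on the deposited values: 4 group means over all 12 arrays, 5 contrasts, and Benjamini-Hochberg adjustment over all probe sets (threshold 0.05). Errors of differences are standard errors of that fit. The fits were tested on simulated data. Figures used matplotlib 3.10.9 in Python 3.11.15. Alternatives were the replicate block, median centring, a filter to probe sets above the median level, trended robust moderation, each cell type alone and leaving out each array. The pairs as a random effect, the paralog comparisons and their sign flip over pairs were added after seeing the data.

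Members and lists were chosen with earlier results of these data known. Array values were to be given for genes past the threshold, for the 3 lowest p-values of each comparison and for a fixed representative of each role. Further genes whose groups did not overlap, and the partner Grpel1, were added after their values were seen. In the other lists, genes past the threshold or the one with the lowest p are named.

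Equal replicate numbers pair the fractions within a cell type, as inferred from the data: for pairs 2, 3 and 4, the correlation of residuals was 0.11, 0.13 and 0.21 in iPSC, against 0.34, 0.23 and 0.28 in ESC, each above 0.1. Across the cell types, equal numbers correlated at -0.09 to 0.13, and equal numbers in iPSC and ESC were not treated as pairs. The highest of these, 0.13 for the low arrays of number 4, was no lower than the values of iPSC pairs 2 and 3.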

Additional observations from a re-analysis of the deposited data

How the results depend on the processing

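Over the whole table, the replicate block within each cell type gave 177 calls in ESC (90 without it), 236 in iPSC (138), 1 in the interaction (0) and 1306 between iPSC and ESC (724). With the pairs as a random effect (consensus correlation 0.192), the counts were 202 in ESC, 502 in iPSC, 1141 averaged (631 without it) and 463 between iPSC and ESC. The 6 ESC arrays alone gave 39 calls. Leaving out each array gave 19 (without ESC low replicate 2) to 111 calls in ESC, 1 (without iPSC high replicate 4) to 208 (without iPSC low replicate 2) in iPSC, 380 (without ESC high replicate 3) to 695 averaged and 394 (without iPSC high replicate 4) to 680 between iPSC and ESC, and 0 in the interaction each time. The causes were not tested.

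Among the 36 genes no call reversed in sign. Centring the arrays moved Grpel2 within iPSC to an adjusted p of 0.0478 and Tomm20l within iPSC to 0.0525, and the random effect moved Grpel2 within iPSC to 0.0370. The filter on dim probe sets removed Tomm20l and Tomm6os, so it gave no value for either, and moved Timm9 between iPSC and ESC to 0.0417. The replicate block changed no call of the 36 genes other than those of Tomm20l, Timm9 and Tomm5. Among the other pathway genes, Romo1 averaged had an adjusted p of 0.0462 with the dim filter and 0.0411 with the random effect. Between iPSC and ESC, Pmpcb had 0.0580 with the random effect and Atf4 had 0.0419 with trended robust moderation. For the 36 genes, signs turned only for differences that were not called, at most 0.30 in size. With 3 arrays a group and no detection calls, small differences of dim genes are beyond these data.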
